A study of Mus musculus with 12 samples.

Results

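The genes described here encode enzymes and carriers of glycolysis and glycogen metabolism, from glucose entry to lactate export and from glycogen synthesis to breakdown. They were chosen by name: 33 were listed, and 31 had a row among the 23621 gene symbols of the count table. Pgam1 and Pygm were not analysed here. Of the 31, 30 passed the filter on low counts, and Eno1 did not, with 6, 7 and 10 reads in all in the 3 groups.

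RNA was sequenced from neutrophils of female Balb/c mice, 8 weeks old, in 12 libraries, 4 per group. The first group, called Naive, came from bone marrow, and the labels say nothing more of its mice. The others, high-density (HDN) and low-density (LDN) neutrophils, came from peripheral blood of mice with liver metastases, so tissue and metastasis change together in each comparison with Naive and cannot be told apart. The labels state neither the tumour line nor any gating or pooling of animals. No label ties the libraries of a group to different animals, so p-values measure only the spread between these samples, which may be technical.

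Glycolysis turns glucose into pyruvate in the cytosol and yields ATP without oxygen. Glucose enters through GLUT carriers, is trapped by hexokinase and committed by phosphofructokinase, and pyruvate can be reduced to lactate. Neutrophils are known to rely on glycolysis and to store glycogen, a branched glucose polymer built by glycogen synthase and taken apart by glycogen phosphorylase.

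Library totals were 18113922 to 27741885 reads (Naive), 20049857 to 30044508 (HDN) and 23181686 to 26456768 (LDN). Levels are given as CPM, read counts scaled to library size with TMM factors, which align the bulk of genes between libraries. A floor of 3 reads equals 0.0954 to 0.153 CPM and covers counting error only. HDN 7 had a scaling factor of 1.28, against 1.01 to 1.05 in the other HDN libraries, and was the lowest of its group for 22 of the 30 tested genes. Naive 1 was the highest of its group for 18. The 15 neutrophil markers summed to 203196 to 235925 CPM in Naive, 81033 to 132242 CPM in HDN and 194627 to 255838 CPM in LDN. Of these, 10 were higher in LDN than in HDN, among them the granule genes Camp, Ltf, Ngp, Elane and Mpo, and 1, Csf3r, was lower. Of 11 monocyte and macrophage markers 6 were higher and 3 lower in LDN, with sums of 435 to 648 CPM against 582 to 837 CPM in HDN. Of 7 tested platelet markers 6 were higher and 1, Itga2b, was lower in LDN than in HDN. Their sums, 28.8 to 34.1 CPM in LDN, 9.81 to 11.9 CPM in HDN and 115 to 126 CPM in Naive, rested in LDN and Naive mostly on Itgb3 (24.3 to 29.1 and 107 to 117 CPM), while Itga2b stood at 6.17 to 8.17 CPM in HDN and 2.00 to 2.88 CPM in LDN. T cell marker sums of 32.5 to 49.3 CPM in LDN, 3.74 to 19.98 CPM in HDN and 193 to 267 CPM in Naive were mostly Cd3d (29.8 to 44.2, 3.09 to 14.8 and 189 to 263 CPM). Cd3e reached at most 0.148 CPM in Naive, 1.10 CPM in HDN and 0.970 CPM in LDN, and Cd3d alone passed between LDN and HDN. Eosinophil markers summed to 40.5 to 86.8 CPM in HDN, above all LDN libraries (13.7 to 23.7 CPM), and to 17.3 to 73.3 CPM in Naive. Of 6 tested, 2 (Siglecf and Ccr3) were lower in LDN than in HDN and 0 higher. Eosinophil sums in HDN were nearly all Siglecf (39.5 to 84.0 CPM, against 13.1 to 21.3 CPM in LDN). Epx had 0 reads in HDN, and Prg2 reached at most 0.343 CPM there, against 4.05 to 45.5 CPM in Naive. Basophil and mast cell sums, at 1089 to 2120.3, 684 to 2132 and 603 to 749 CPM in LDN, HDN and Naive, were nearly all Hdc. Markers of dendritic cells, natural killer cells and red cell precursors summed to at most 14.3, 3.17 and 6.66 CPM. B cell marker sums were 1.82 to 7.56, 0.458 to 2.78 and 17.4 to 46.7 CPM in LDN, HDN and Naive. The 5 epithelial and tumour markers summed to 11.1 to 71.3 CPM in LDN and 11.6 to 65.1 CPM in HDN, and to 0.258 to 0.458 CPM in Naive. Of these, Cdh1 took 3.85 to 64.2 CPM in HDN and 9.96 to 71.3 CPM in LDN and did not pass between these groups. Epcam was lower in LDN (0 to 1.12 CPM) than in HDN (0.799 to 7.71 CPM), though their libraries overlapped. It reached at most 0.0382 CPM in Naive. Hepatocyte markers reached at most 0.254 CPM in any library, and Krt19 had 0 reads. The part of granule content and of other cells in the differences below was not tested. In bulk RNA, fewer cells of a type and less RNA per cell cannot be told apart.

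Differences are log2 fold changes ± SE (edgeR, quasi-likelihood), with p-values adjusted by the Benjamini-Hochberg method over 10604 genes and a threshold of 0.05. In LDN against HDN, 15 of the 30 genes were higher and 0 lower, where 46.3% of all genes passed, 26.0% higher and 20.3% lower. An unadjusted p under 0.05 gave 15 and 0, limma-voom 15 and 0, and DESeq2 14 and 0. Their median difference was 0.45, beside 0.02 for all genes. Libraries of HDN and LDN did not overlap for 14 of the 30, beside 39.2% of all genes.

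In HDN against Naive, 10 of the 30 were higher and 8 lower, where 59.8% of all genes passed (30.0% higher, 29.9% lower), and the median was 0.07 beside 0.04. In LDN against Naive, 16 were higher and 4 lower, where 54.2% of all genes passed (27.4% higher, 26.8% lower), with a median of 0.59 beside 0.01. These comparisons share the Naive libraries. Groups did not overlap for 14 genes in HDN against Naive and 21 in LDN against Naive, beside 53.3% and 55.3% of all genes. Of the 4 lower in LDN than in Naive, Gys1 and Phka2 no longer passed without Naive 3 or without Naive 4, which left 2.

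The balance between LDN and HDN moved with the scale. Total counts alone moved the median of all genes from 0.02 to -0.28, and 1782 of 5457 called genes were then higher, against 2761 of 4914. On that scale 13 of the 30 were higher and 3 lower (Pfkm, Pfkp and Pfkfb4). With the 20 most abundant genes kept out of the library sizes the median of all genes was -0.12, and the 30 gave 14 higher and 2 lower (Pfkp and Pfkfb4). In LDN against Naive that scale moved the median of all genes to -0.28 and gave 14 higher and 7 lower. No gene of the 30 that passed changed its direction on any scale.

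Together the 31 genes took 12664 ± 1348 CPM in Naive, 11536 ± 2484 CPM in HDN and 18637 ± 1471 CPM in LDN (mean ± SD, n = 4, here and below). Every LDN library, at 17268 to 20132 CPM, lay above all others, while HDN (7897 to 13492 CPM, HDN 7 lowest) overlapped with Naive (11685 to 14597 CPM).

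**Figure D1:**
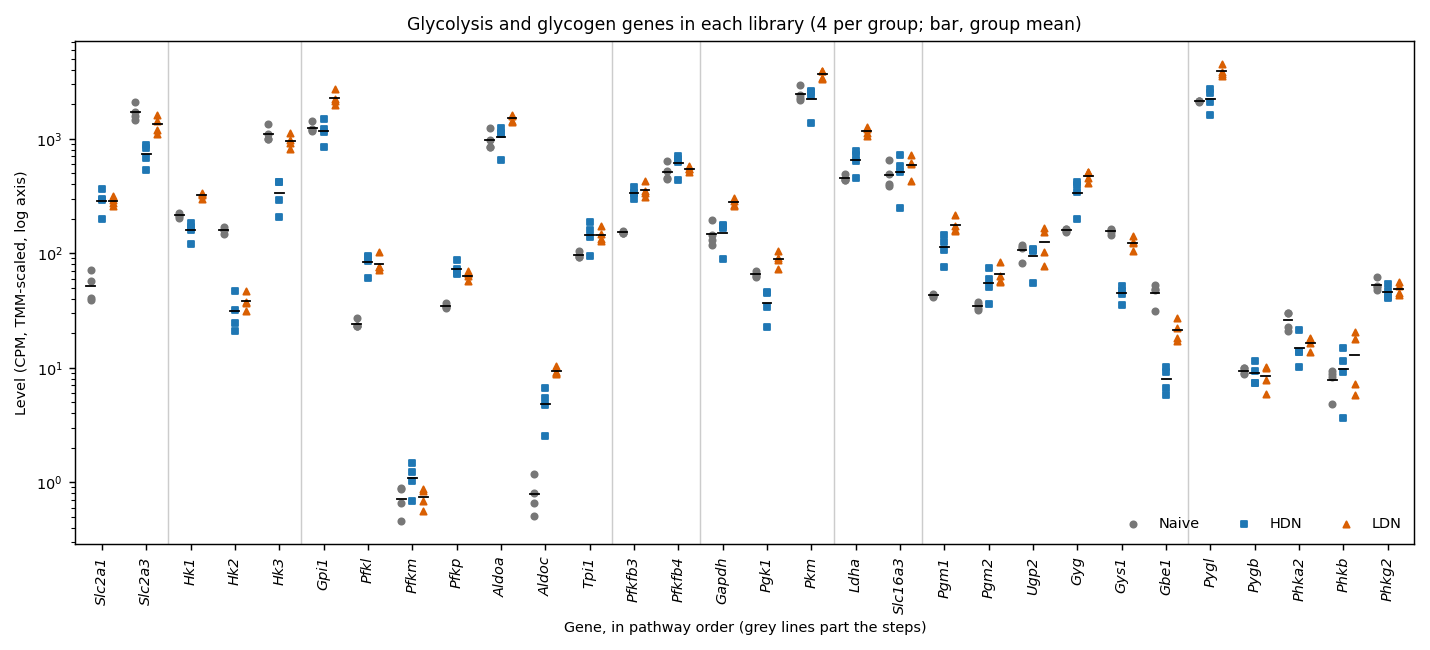
Level of each of the 30 tested genes in every library, as CPM on a log axis, with genes in pathway order and a bar at each group's mean. Slc2a1 and Pfkl sit higher in both blood groups than in Naive, Hk2 and Gbe1 sit lower in both, and Gys1, Hk3 and Pgk1 dip in HDN.

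Promoters are shown first for 4 of the genes. Several glycolytic genes are textbook targets of the hypoxia-inducible factor, whose core site is ACGTG or GCGTG. The form GCGTG was not searched, so the matches and shares below cover ACGTG only. For 28 of 29 genes searched (Pgm1 and Pgm2 were left out because of their ambiguous symbols) RefSeq listed 41 promoters in build GRCm38.p6, and the 250 bases before each start were searched on both strands. ACGTG was in 39.0% of them and in 16.6% of all 32851 RefSeq promoters. The share was 36.8% for the 19 promoters of genes higher in LDN than in HDN and 40.9% for the 22 of the others. CACGTG, which contains ACGTG on each strand, was in 7.32% of them and 6.02% of all. A match describes letters only. Ldha (the first of 2 listed promoters), Pgk1 and Slc2a1 are shown because they hold the motif and differ in their pattern across groups, and Gys1 because it had the smallest p-value in LDN against HDN and holds no match in this window. Capitals mark ACGTG or its complement CACGT, and each runs 5′ to 3′ on the strand of its gene.
Ldha, chr7:46845554-46845803, plus strand: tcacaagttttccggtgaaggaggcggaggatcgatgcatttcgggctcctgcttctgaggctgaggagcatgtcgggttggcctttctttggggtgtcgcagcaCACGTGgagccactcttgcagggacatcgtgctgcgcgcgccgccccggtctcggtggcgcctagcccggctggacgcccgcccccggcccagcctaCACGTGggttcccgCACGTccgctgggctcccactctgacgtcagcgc
Pgk1, chrX:106186850-106187099, plus strand: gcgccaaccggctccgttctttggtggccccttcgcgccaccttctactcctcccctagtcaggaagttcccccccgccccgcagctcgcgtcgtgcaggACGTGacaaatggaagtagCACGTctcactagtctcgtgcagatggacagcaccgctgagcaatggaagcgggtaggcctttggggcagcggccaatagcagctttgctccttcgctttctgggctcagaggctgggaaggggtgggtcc
Slc2a1, chr4:119108495-119108744, plus strand: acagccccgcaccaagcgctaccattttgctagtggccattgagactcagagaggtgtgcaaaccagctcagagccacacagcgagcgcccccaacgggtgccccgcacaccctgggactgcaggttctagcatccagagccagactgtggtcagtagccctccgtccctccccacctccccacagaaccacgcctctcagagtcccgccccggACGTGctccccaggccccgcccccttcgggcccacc
Gys1, chr7:45434589-45434838, plus strand: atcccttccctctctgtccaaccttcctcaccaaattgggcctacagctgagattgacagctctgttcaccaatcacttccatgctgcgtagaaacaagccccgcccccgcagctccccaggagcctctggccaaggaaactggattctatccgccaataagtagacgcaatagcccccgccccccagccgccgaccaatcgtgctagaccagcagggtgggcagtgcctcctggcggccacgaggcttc
Ldha holds 5 matches in that window, Pgk1 2 and Slc2a1 1, counting overlapping ones on each strand.

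Glucose entry divided between its carriers. Slc2a1, the basal glucose transporter GLUT1, stood at 70.8, 57.7, 39.0 and 40.3 CPM in Naive 1 to 4, at 297, 290.1, 365 and 199 CPM in HDN 3, 4, 5 and 7, and at 259, 295, 319 and 276 CPM in LDN 3, 4, 5 and 7. All blood libraries were above all Naive ones, and HDN and LDN overlapped. The rise over Naive was 5.54-fold in HDN (2.47 ± 0.22, adjusted p = 3.57e-07) and 5.53-fold in LDN, and LDN differed from HDN by -0.003 ± 0.20. Slc2a3, the high-affinity transporter GLUT3, was high in Naive instead, at 2078, 1720.4, 1569 and 1472 CPM, with 677, 877, 831 and 529.6 CPM in HDN and 1104, 1602, 1433 and 1195 CPM in LDN. HDN lay below both other groups. Slc2a3 changed by -1.23 ± 0.18 in HDN against Naive (adjusted p = 4.99e-05) and was 1.83-fold higher in LDN than in HDN (0.87 ± 0.18, adjusted p = 0.00153). LDN overlapped with Naive (-0.36, adjusted p = 0.106), but Slc2a3 was lower in LDN without LDN 4 (-0.51, adjusted p = 0.0323), with only those groups fitted (adjusted p = 0.0338), with total-count scaling (0.00154) and without the most abundant genes (0.00104).

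Per kilobase of exon, a scale on which genes of unequal length can be compared, Slc2a1 took 3.51% ± 0.515 of the summed level of both carriers in Naive, 32.4% ± 2.95 in HDN and 20.9% ± 1.81 in LDN. No groups overlapped in this share, since the lowest HDN library, at 28.7%, was above the highest LDN library, at 22.2%. Slc2a3 was the more abundant carrier in all 12 libraries, with 65.2% or more.

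The hexokinases, which phosphorylate glucose on entry, were all lower in HDN than in Naive, and 2 of the 3 were higher in LDN than in HDN. Hk3, the most abundant hexokinase gene here, stood at 1345, 1095, 1002 and 999 CPM in Naive, 419.6, 289.6, 422 and 207 CPM in HDN and 974, 916, 1119.8 and 812 CPM in LDN. HDN lay below both other groups, which overlapped. Hk3 was 3.32-fold lower in HDN than in Naive (-1.73 ± 0.21, adjusted p = 8.61e-06) and 2.86-fold higher in LDN than in HDN (1.51 ± 0.21, adjusted p = 7.54e-05). LDN and Naive differed by -0.22 ± 0.20 (adjusted p = 0.393), and Hk3 passed as lower in LDN with total-count scaling (-0.44, adjusted p = 0.0199) and without the most abundant genes (-0.51, adjusted p = 0.0137).

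Hk1, whose product binds the mitochondrial outer membrane, stood at 224, 204, 217 and 213 CPM in Naive, 169.9, 184, 160.0 and 121 CPM in HDN and 300.4, 330.3, 339 and 320.3 CPM in LDN. No groups overlapped, with HDN lowest and LDN highest. Hk1 changed by -0.43 ± 0.12 in HDN and 0.59 ± 0.12 in LDN against Naive, and LDN exceeded HDN by 1.02 ± 0.12 (adjusted p = 2.52e-05). Hk2, the inducible mitochondrial hexokinase, stood at 170.1, 149, 161 and 159 CPM in Naive, 32.0, 24.5, 46.9 and 20.8 CPM in HDN and 36.8, 37.2, 46.6 and 31.2 CPM in LDN. It was 5.14-fold lower in HDN (-2.36 ± 0.22) and 4.21-fold lower in LDN (-2.07 ± 0.22) than in Naive, with no overlap. HDN and LDN overlapped (0.29 ± 0.21, adjusted p = 0.277), and without HDN 5 Hk2 was higher in LDN (0.56, adjusted p = 0.0168).

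As a share of the hexokinase level per kilobase, Hk3 took 81.9% ± 1.78 in Naive, 71.5% ± 4.45 in HDN and 79.4% ± 1.89 in LDN. Hk1 took 11.04% ± 1.09, 24.5% ± 4.79 and 18.7% ± 1.95. Hk2 took 7.11% ± 0.685, 3.99% ± 0.750 and 1.88% ± 0.106, and its share did not overlap between any of the groups.

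**Figure D2:**
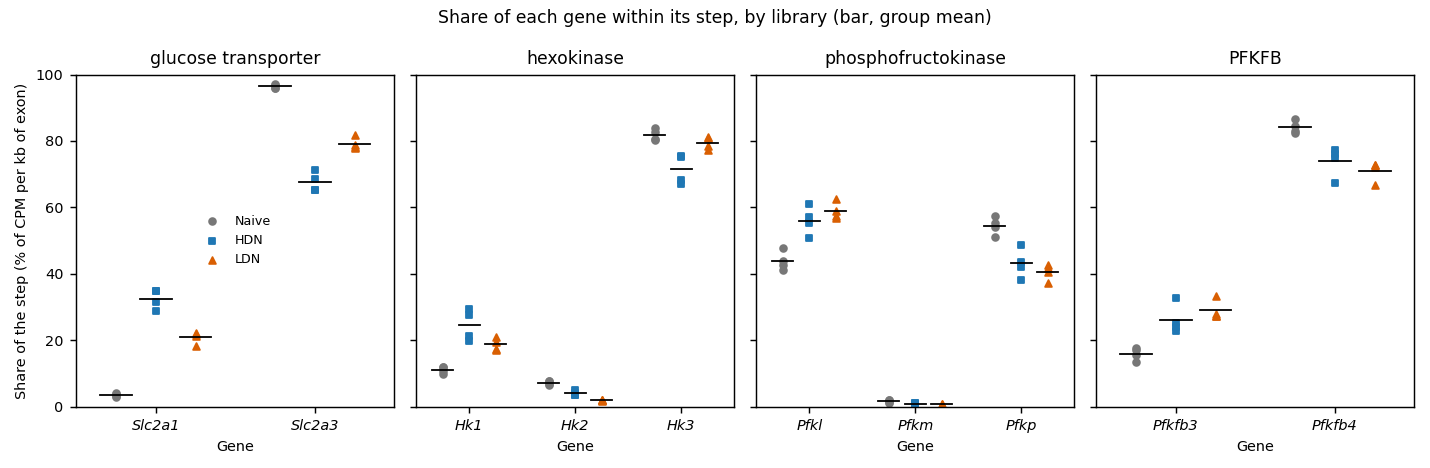
Share of each gene in the summed level of its step, in percent of CPM per kilobase of exon, for every library, with a bar at the group mean. The share of Slc2a1 is 2.93% to 3.97% in Naive, 28.7% to 34.8% in HDN and 18.3% to 22.2% in LDN, and Hk3 leads the hexokinases in all 12 libraries.

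In upper glycolysis, Pfkl, Pfkp, Aldoc and Tpi1 were higher than Naive in both blood groups, while Gpi1 and Aldoa were higher in LDN than in both other groups. Pfkl, the liver-type phosphofructokinase subunit, stood at 27.3, 23.1, 23.0 and 23.0 CPM in Naive, 85.9, 95.5, 92.5 and 60.4 CPM in HDN and 75.4, 102, 71.7 and 75.7 CPM in LDN. The blood libraries were all above Naive, by 3.47-fold in HDN (1.79 ± 0.16, adjusted p = 5.03e-07) and 3.37-fold in LDN, and overlapped with each other (-0.04 ± 0.16). Pfkp, the platelet-type subunit, stood at 34.5 ± 1.66 CPM in Naive, 73.3 ± 9.46 CPM in HDN and 63.9 ± 5.53 CPM in LDN. Against Naive it rose by 1.09 ± 0.12 in HDN and 0.89 ± 0.12 in LDN. Its difference between LDN and HDN was -0.20 ± 0.11 (adjusted p = 0.169). It passed as lower in LDN with the sample number as a block (-0.25, adjusted p = 0.0284), with total-count scaling (-0.49) and without the most abundant genes (-0.34). Pfkm, the muscle-type subunit, was scarce, with means of 0.716, 1.10 and 0.742 CPM in Naive, HDN and LDN. It passed in no comparison with all libraries on the TMM scale, but in HDN against Naive without HDN 7 (0.80, adjusted p = 0.0277). Per kilobase, Pfkl made up 43.9% ± 2.82 of the phosphofructokinase level in Naive, 56.0% ± 4.27 in HDN and 58.9% ± 2.52 in LDN. Pfkp held most of the rest.

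Gpi1, glucose phosphate isomerase, stood at 1432, 1219, 1159 and 1188 CPM in Naive, 1151, 1491, 1207 and 839 CPM in HDN and 1978, 2743, 2138 and 2239 CPM in LDN. LDN lay above both other groups, by 0.96 ± 0.17 over HDN (adjusted p = 0.000485) and 0.86 ± 0.17 over Naive, and HDN overlapped with Naive. Aldoa, the main aldolase gene, stood at 974 ± 185 CPM in Naive, 1027 ± 256 CPM in HDN and 1507 ± 107 CPM in LDN (0.55 ± 0.19 over HDN, adjusted p = 0.026). That call ended without LDN 3, LDN 4 or LDN 5 (adjusted p = 0.0552 to 0.0774) and with total-count scaling (adjusted p = 0.0626). Aldoc, the brain-type aldolase, was scarce and rose stepwise, from 0.791 ± 0.291 CPM in Naive to 4.86 ± 1.74 CPM in HDN and 9.35 ± 0.692 CPM in LDN. No groups overlapped, and LDN was 11.6-fold above Naive (3.53 ± 0.31). Tpi1, triose phosphate isomerase, stood at 96.8 ± 5.05 CPM in Naive, 145 ± 38.9 CPM in HDN and 146 ± 20.4 CPM in LDN. It changed by 0.59 ± 0.17 in HDN and 0.59 ± 0.17 in LDN against Naive, with HDN 7 among the Naive libraries, and LDN and HDN differed by 0.003 ± 0.17. The call in LDN ended without the most abundant genes in the library sizes (adjusted p = 0.101).

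The PFKFB enzymes make and remove the sugar phosphate that activates phosphofructokinase. Pfkfb3, the form that most favours making it, stood at 152 ± 3.35 CPM in Naive, 335 ± 32.7 CPM in HDN and 354 ± 53.2 CPM in LDN. It rose over Naive without overlap in HDN (1.14 ± 0.12) and LDN (1.22 ± 0.12), and the blood groups overlapped (0.08 ± 0.12). Pfkfb4 was more abundant, at 514 ± 87.1, 612 ± 122 and 546 ± 27.0 CPM in the same order, and passed in no comparison in the fit of all libraries with TMM scaling and no block. In HDN against Naive it passed without HDN 7 (0.39, adjusted p = 0.014), without Naive 1 (0.37, adjusted p = 0.0438) and with total-count scaling (adjusted p = 0.0158). Per kilobase, Pfkfb3 took 15.9% ± 1.87 of the pair in Naive, 26.1% ± 4.43 in HDN and 29.0% ± 2.93 in LDN.

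In lower glycolysis, Gapdh, Pgk1 and Pkm were each higher in LDN than in HDN. Pgk1, phosphoglycerate kinase, an ATP-yielding step, stood at 69.5, 62.5, 66.4 and 63.3 CPM in Naive, 45.1, 33.8, 46.3 and 22.5 CPM in HDN and 90.8, 86.8, 106 and 73.3 CPM in LDN. HDN was lowest and LDN highest without overlap, and LDN exceeded HDN 2.41-fold (1.27 ± 0.19, adjusted p = 0.000166). HDN was 1.77-fold below Naive (-0.83 ± 0.19). LDN differed from Naive by 0.45 ± 0.19 (adjusted p = 0.0642), and passed with only those groups fitted (adjusted p = 0.00836). Gapdh, which makes NADH, stood at 146 ± 33.0 CPM in Naive, 152 ± 42.4 CPM in HDN and 278 ± 22.3 CPM in LDN. LDN lay above both other groups, 1.83-fold above HDN (0.87 ± 0.21, adjusted p = 0.00377). Pkm, pyruvate kinase, the last ATP-yielding step, stood at 2939, 2423, 2253 and 2182 CPM in Naive, 2421, 2544, 2626 and 1361 CPM in HDN and 3373, 3937, 3936 and 3333 CPM in LDN. LDN lay above both other groups, by 0.70 ± 0.19 over HDN (adjusted p = 0.00833). Its difference from Naive (0.57 ± 0.19, adjusted p = 0.02) no longer passed without Naive 2, Naive 3, Naive 4, LDN 4 or LDN 5 (adjusted p = 0.0561 to 0.0619) or without the most abundant genes (0.0809).

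Several of these genes, Gapdh among them, have processed copies in the genome. Column names carry the suffix of STAR's per-gene counts, which leave out reads that map to several places. No source used here states this in words, and what it took from each row was not tested. At the enolase step the row of Eno1 held at most 5 reads in a library. Eno1b, a near-identical copy, stood at 168 CPM in Naive, 149.9 CPM in HDN and 230.1 CPM in LDN (0.62 ± 0.17 for LDN over HDN, adjusted p = 0.00948). How far reads of Eno1 fell into the Eno1b row was not tested.

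At the lactate end, Ldha, which turns pyruvate into lactate, rose stepwise. It stood at 497, 439, 439 and 441 CPM in Naive, 638, 783, 720.0 and 458 CPM in HDN and 1049, 1266, 1212 and 1116 CPM in LDN. LDN overlapped with neither group, while HDN 7 fell among the Naive libraries. The rise was 1.43-fold in HDN over Naive (0.52 ± 0.15, adjusted p = 0.00864), 1.79-fold in LDN over HDN (0.84 ± 0.15) and 2.56-fold in LDN over Naive (1.35 ± 0.15). Slc16a3, the lactate exporter MCT4, overlapped between all groups, at 486 ± 123, 517 ± 198 and 591 ± 119 CPM in Naive, HDN and LDN. Its difference between LDN and HDN was 0.19 ± 0.27 (adjusted p = 0.591).

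Of the glycogen synthesis genes, Pgm1, Pgm2 and Gyg rose in blood, and Gys1 and Gbe1 fell. Pgm1 and Pgm2 encode phosphoglucomutases, which link glycogen to glycolysis, but these symbols were exchanged between mouse annotations, so which enzyme each row holds is not settled here. The Pgm1 row stood at 42.8 ± 1.20 CPM in Naive, 113 ± 28.9 CPM in HDN and 176 ± 26.1 CPM in LDN, with no overlap between groups (0.63 ± 0.17 for LDN over HDN, adjusted p = 0.00757). The Pgm2 row averaged 34.6, 54.9 and 65.3 CPM in Naive, HDN and LDN. It changed by 0.67 ± 0.19 in HDN and 0.92 ± 0.19 in LDN against Naive, and HDN and LDN overlapped. Gyg, glycogenin, which primes a glycogen particle, stood at 159 ± 4.90 CPM in Naive, 338 ± 98.2 CPM in HDN and 473 ± 49.6 CPM in LDN. Both blood groups were above Naive (1.09 ± 0.19 and 1.57 ± 0.19). Between LDN and HDN, whose libraries overlapped, it differed by 0.48 ± 0.18 (adjusted p = 0.0449). This call ended without HDN 4, LDN 3, LDN 4, LDN 5 or LDN 7 (adjusted p = 0.0598 to 0.132), with RLE scaling, total-count scaling, the scale without the most abundant genes, no filter and DESeq2 (0.0549 to 0.211), and with only these groups fitted (0.116). In the authors' deposited table its adjusted p was 0.06, and 14 of the 31 genes were higher and 0 lower in LDN than in HDN. Ugp2, which makes the UDP-glucose for glycogen, averaged 106, 93.9 and 125 CPM in Naive, HDN and LDN and passed in no comparison. The libraries numbered 4 were the lowest of both blood groups (54.9 CPM in HDN, 77.5 CPM in LDN).

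Gys1, glycogen synthase, had the smallest adjusted p of the 30 genes in LDN against HDN. It stood at 154, 143, 160.0 and 163 CPM in Naive, 44.2, 52.1, 46.6 and 35.6 CPM in HDN and 105, 143, 122 and 124 CPM in LDN. HDN was far below both other groups, and the highest LDN library lay just below the lowest Naive one. Gys1 was 2.76-fold higher in LDN than in HDN (1.47 ± 0.13, adjusted p = 2.56e-06) and 3.47-fold lower in HDN than in Naive (-1.80 ± 0.13). The gap between LDN and Naive was -0.33 ± 0.13 (adjusted p = 0.0441), and it no longer passed without Naive 3, Naive 4 or LDN 3 (adjusted p = 0.0571 to 0.101). Gbe1, the branching enzyme, stood at 31.3, 47.4, 48.9 and 53.1 CPM in Naive, 9.26, 5.82, 10.05 and 6.64 CPM in HDN and 22.1, 17.3, 27.1 and 18.2 CPM in LDN. Here too HDN was lowest and Naive highest with no overlap. Gbe1 was 2.67-fold higher in LDN than in HDN (1.42 ± 0.22, adjusted p = 0.000205) and 5.70-fold lower in HDN than in Naive (-2.51 ± 0.23).

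For glycogen breakdown, Pygl, the liver-type glycogen phosphorylase, stood at 2129.6, 2144, 2102 and 2150.3 CPM in Naive, 2489.9, 2077, 2697 and 1602 CPM in HDN and 3801, 3641, 4532 and 3558 CPM in LDN. LDN was above both other groups, which overlapped, by 1.75-fold over HDN (0.81 ± 0.16, adjusted p = 0.000935) and 1.82-fold over Naive. Per kilobase, Pygl held 99.5% to 99.9% of the level of Pygl and Pygb. Pygb, the brain type, averaged 9.42, 8.92 and 8.45 CPM in Naive, HDN and LDN and passed in no comparison. Phosphorylase kinase switches phosphorylase on. Its regulatory subunit gene Phka2 stood at 26.0 ± 4.78 CPM in Naive, 14.8 ± 4.73 CPM in HDN and 16.5 ± 2.06 CPM in LDN. It was lower than in Naive in HDN (-0.82 ± 0.21) and LDN (-0.66 ± 0.21), and the call in LDN ended without Naive 3 or Naive 4 (adjusted p = 0.0549 and 0.0544). Phkb, another regulatory subunit, ranged from 3.62 to 14.8 CPM in HDN and from 5.81 to 20.5 CPM in LDN, with number 4 the lowest library of both groups. Phkg2, the catalytic subunit, stood at 53.0 ± 6.31, 45.8 ± 5.83 and 49.0 ± 6.44 CPM in Naive, HDN and LDN. Neither passed in any comparison with all libraries on the TMM scale, but Phkg2 passed as lower in HDN (-0.35) and LDN (-0.40) than in Naive when the most abundant genes were left out of the library sizes.

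**Figure D3:**
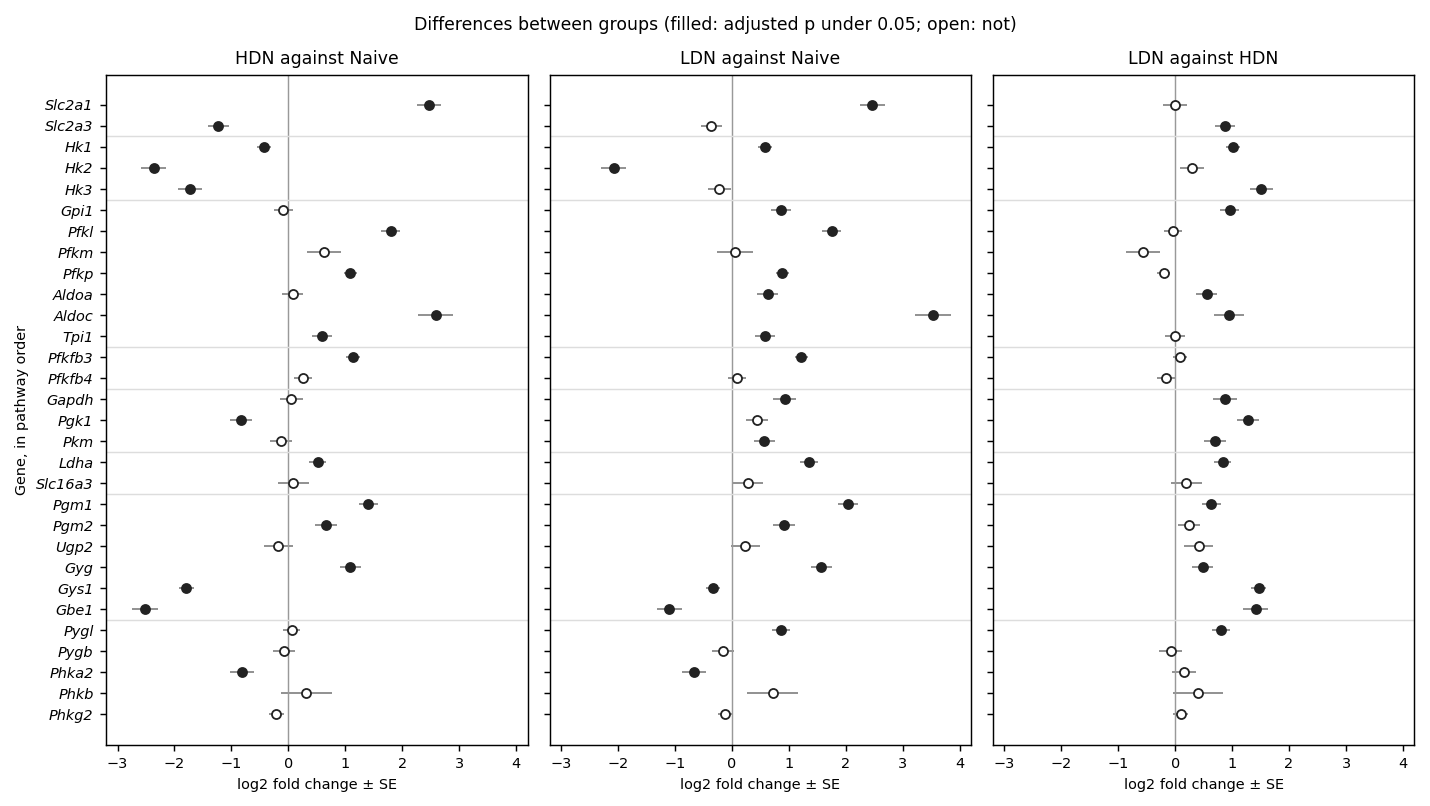
Log2 fold change ± SE of the 30 tested genes in HDN against Naive, LDN against Naive and LDN against HDN, in pathway order, with filled points at an adjusted p under 0.05. In LDN against HDN 15 points are filled and all lie above 0, led by Hk3 (1.51), Gys1 (1.47), Gbe1 (1.42) and Pgk1 (1.27).

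Over the 3 comparisons the 30 genes fell into 8 patterns of calls. Slc2a1, Pfkl, Pfkp, Tpi1, Pfkfb3 and Pgm2 were higher than Naive in both blood groups, with no call between these. Aldoc, Ldha, Pgm1 and Gyg were higher in both and higher again in LDN. Gpi1, Aldoa, Gapdh, Pkm and Pygl were higher in LDN than in both other groups, with no call between HDN and Naive. Slc2a3, Hk3 and Pgk1 were lower in HDN than in both other groups, with no call between LDN and Naive. Gys1 and Gbe1 were lower than Naive in both and higher in LDN than in HDN, and Hk2 and Phka2 were lower in both with no call between them. Hk1 was lower than Naive in HDN and higher in LDN, and 7 genes passed in no comparison. Between samples of the same number, the 15 genes called in LDN against HDN were higher in LDN in all 4 pairs, from 0.29 (Gyg, number 3) to 1.97 (Hk3, number 7) on the log2 scale. For all of these but Gyg the LDN and HDN libraries did not overlap. Their result in pairs was therefore fixed and adds nothing to the calls. Of the 15 without a call, Phkg2 was higher and Pfkp lower in all 4 pairs.

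Among 104 further listed genes of sugar and glycogen metabolism, 101 had a row and 73 were tested. In LDN against HDN 24 of these were higher and 13 lower, where 26.0% and 20.3% of all genes were, with a median of 0.18. In HDN against Naive 21 were higher and 26 lower, where 30.0% and 29.9% of all genes were. In LDN against Naive 22 were higher and 20 lower, where 27.4% and 26.8% of all genes were.

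Further genes of sugar entry were higher in LDN than in HDN for 3 of 11 and lower for 2. Adpgk, a glucokinase that uses ADP, averaged 2237 CPM in Naive, 271 CPM in HDN and 1172 CPM in LDN (2.11 ± 0.22 for LDN over HDN, adjusted p = 6.85e-06). Slc2a9, a urate carrier of the GLUT family, was also higher (2.13). Txnip, which restrains glucose uptake, averaged 1398 CPM in LDN, 2527 CPM in HDN and 1305 CPM in Naive and was lower in LDN than in HDN (-0.85 ± 0.18, adjusted p = 0.00148), as was Slc2a6, another GLUT gene (-0.67).

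Other glycolytic and reverse steps were higher in LDN for 4 of 10 and lower for 1. Fbp1, the gluconeogenic phosphatase that opposes phosphofructokinase, averaged 19.4 CPM in Naive, 2.35 CPM in HDN and 15.3 CPM in LDN (2.70 ± 0.31 for LDN over HDN, adjusted p = 1.77e-05). Pck2, mitochondrial phosphoenolpyruvate carboxykinase, was higher (0.61), and Eno3, muscle enolase, lower (-0.96).

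Of 18 genes for the fate of pyruvate and lactate, 9 were higher and 3 lower in LDN than in HDN. Pdk1, a kinase that turns pyruvate dehydrogenase off, averaged 0.692 CPM in Naive, 8.996 CPM in HDN and 2.18 CPM in LDN (-2.05 ± 0.23 for LDN against HDN, adjusted p = 1.38e-05). Pdk2, a related kinase gene (-0.96), and Bsg, the chaperone of lactate carriers (-0.49), were also lower. Me2, mitochondrial malic enzyme (1.52, adjusted p = 2.57e-06), Pdk3 (0.94) and Ldhb (0.98, adjusted p = 0.049) were higher. Ldhb, the heart-type lactate dehydrogenase, averaged 10.4 CPM in Naive, 1.51 CPM in HDN and 2.97 CPM in LDN. Ldha held 96.8%, 99.7% and 99.6% of the level of both per kilobase. Slc16a1, the carrier MCT1, fell against Naive in HDN (-1.83) and LDN (-2.02), with -0.19 ± 0.36 between LDN and HDN.

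Of 15 other glycogen genes, 4 were higher and 2 lower in LDN than in HDN. Prkacb, a catalytic subunit of protein kinase A, was higher (0.70 ± 0.14, adjusted p = 0.00149), and the calmodulin gene Calm2 lower (-0.56). Gsk3b, whose kinase restrains glycogen synthase, differed by -0.10 ± 0.13 (adjusted p = 0.57).

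Regulators of sugar use were higher for 4 of 19 and lower for 5. Hif1a, the oxygen-regulated subunit of the hypoxia-inducible factor, averaged 23.4 CPM in Naive, 119.7 CPM in HDN and 100.3 CPM in LDN. It rose over Naive in HDN (2.36 ± 0.37, adjusted p = 9.29e-05) and LDN (2.10 ± 0.37, adjusted p = 0.000298), with -0.26 ± 0.35 between LDN and HDN (adjusted p = 0.578). Mlx, partner of glucose-sensing transcription factors, was higher in LDN than in HDN (0.91) and Mlxip, one of those factors, lower (-0.65). Prkab1, a subunit of AMP-activated kinase (0.68), and Vhl, which marks Hif1a protein for destruction (0.47), were higher, and the oxygen sensor genes Egln1 (-0.75) and Egln3 (-0.47) lower.

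**Figure D4:**
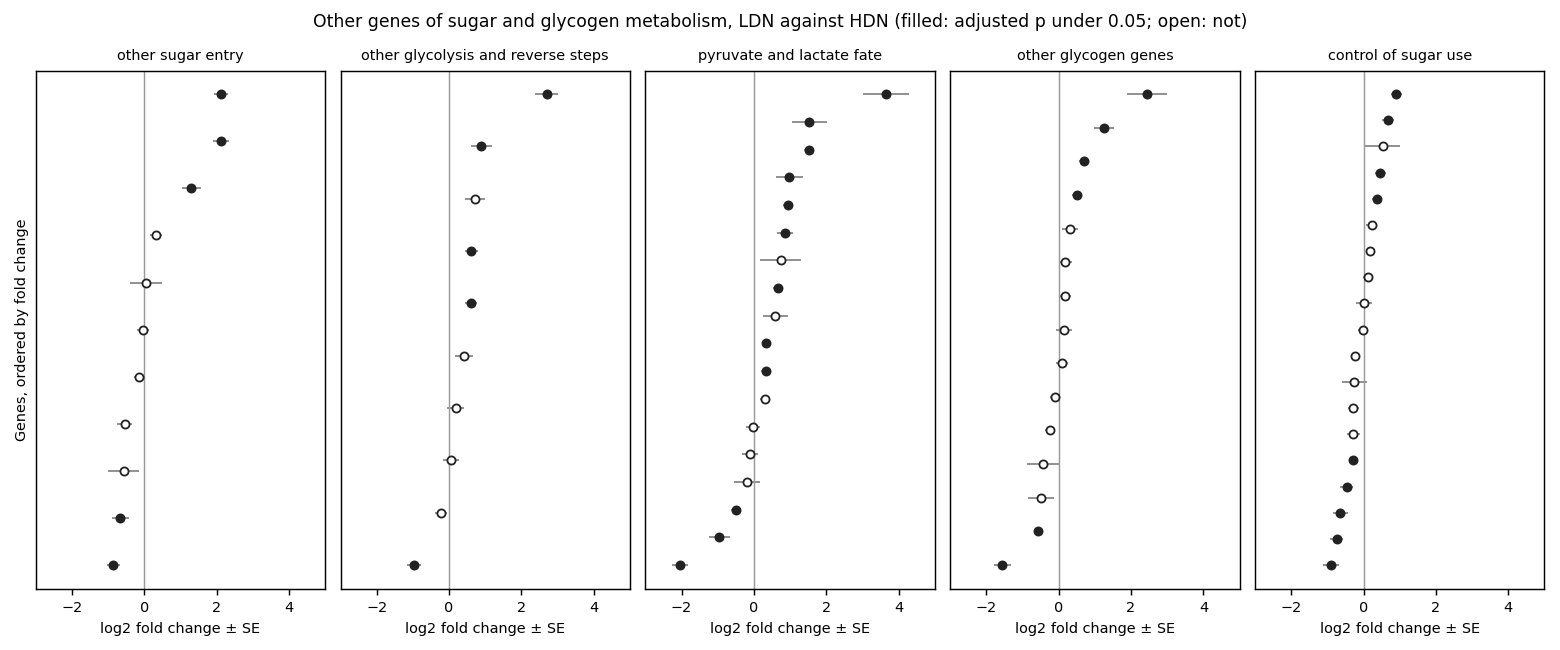
Log2 fold change ± SE in LDN against HDN of the 73 tested further genes of sugar and glycogen metabolism, in 5 groups, 1 point per gene ordered by size within each, with filled points at an adjusted p under 0.05. Of the filled points 24 lie above 0 and 13 below, and the lowest is Pdk1 (-2.05).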

How the data were processed

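RNA was measured in 12 libraries in 3 groups of 4. Libraries were stranded and made from polyadenylated RNA, per the labels' protocols. CASAVA 1.8.2, Trimmomatic, STAR and DESeq2 1.16.1 were used, per the submitters' processing notes. Overlapping and antisense genes cannot be told apart, because the genome build, the annotation and any use of strand in counting were not given in the sources used here. The authors deposited raw counts per gene symbol, which were matched to samples by column name. They also deposited DESeq2 tables whose columns, per the file headers, are a mean normalized signal, a log2 fold change with its SE, a test score, a p-value and an adjusted p-value.

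Counts were fitted in edgeR 4.0.16 (R 4.3.3) over all 12 libraries, with a single factor for group and TMM scaling. Of 15762 symbols with reads, 10604 passed filterByExpr and held 99.967% of counts. The SE is the fold change divided by the square root of F. Exon lengths are unions over protein-coding transcripts of GENCODE M21 and only set genes side by side. The members, gene lists and naming rule were chosen with earlier results of these data known. All members were named. Of each further list, up to 3 genes per direction were named that passed in LDN against HDN with a mean log2 CPM of 1 or more and the largest differences, plus Hif1a, Pdk1, Ldhb, Slc16a1 and Gsk3b. Some genes that the rule picked are not reported here. Marker genes were named after their values were seen.

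The labels of HDN and LDN share the numbers 3, 4, 5 and 7. Deviations from the group means correlated at 0.31 to 0.76 between HDN and LDN libraries of the same number and at -0.61 to 0.41 between others. These ranges overlap, and HDN 3 correlated more with LDN 5 (0.41) than with LDN 3 (0.39). The numbers were taken as possible pairs of these groups, though no label explains them. The reported fit did not pair them, and the number entered as a block only in an alternative. Naive numbers did not pair (-0.13 to 0.16 with LDN). The chi-square per gene between libraries of a group was at least 3.42, so all were counted as different libraries. That lowest value was between Naive 3 and Naive 4, and the other pairs gave 15.8 to 196. Whether Naive 3 and Naive 4 came from the same animal was not tested. Alternatives covered scaling, the filter, DESeq2 1.42.0, limma-voom (limma 3.58.1), the samples fitted, the sample number as a block and each library left out. Column names of HDN and LDN carry a tag that Naive names lack and that resembles a date, so a batch cannot be told apart from the groups in comparisons with Naive.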

Additional observations from a re-analysis of the deposited data

Results flagged for a closer look

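In 7 of 93 sets of 4 libraries (31 genes in 3 groups), 1 library stood far from the other 3 by Dixon's criterion, which chance meets in about 1 of 20. HDN 7 held Gapdh at 88.3 CPM against 167 to 177 CPM in the other HDN libraries, and Pkm at 1361 CPM against 2421 to 2626 CPM. HDN 4 held Ugp2 at 54.9 CPM against 104 to 109.7 CPM. LDN 4 held Pfkl at 102 CPM against 71.7 to 75.7 CPM in the other LDN libraries, and Aldoc at 10.4 CPM against 8.89 to 9.12 CPM. Naive 1 held Pfkl at 27.3 CPM against 23.0 to 23.1 CPM in the other Naive libraries, and Ldha at 497 CPM against 439 to 441 CPM. Without HDN 7, 15 members were higher and 0 lower in LDN against HDN.

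Hk1 moved in opposite directions from Naive in the blood groups, by -0.43 in HDN and 0.59 in LDN. The difference between these changes, tested in edgeR as LDN against HDN, was 1.02 (adjusted p = 2.52e-05). Hk1 was higher in LDN in 4 of 4 pairs, which follows because its LDN and HDN libraries did not overlap.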

How the results depend on the processing

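Counts of members that passed stayed within 1.5 times the reported ones in each comparison and direction with RLE scaling, DESeq2, limma-voom, no filter and only the groups compared. In LDN against HDN, lower members went from 0 to 3 with total-count scaling, to 2 without the 20 most abundant genes in the library sizes and to 1 (Pfkp) with the replicate block. In LDN against Naive, lower members went from 4 to 7 without the 20 most abundant genes. Leaving out 1 library gave 13 to 16 higher and 0 lower in LDN against HDN, 10 to 12 and 8 in HDN against Naive, and 15 to 16 and 2 to 5 in LDN against Naive. The causes were not tested. No member that passed changed its direction under these alternatives.

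With the replicate block, LDN against HDN gave 15 higher and 1 lower, and no call other than that of Pfkp changed. In the comparisons with Naive, whose numbers do not pair, the block gave 11 higher and 7 lower in HDN and 18 higher and 3 lower in LDN. It ended the calls of Hk1 in HDN (-0.38, adjusted p = 0.0609) and Gys1 in LDN (-0.34, adjusted p = 0.101), and gave calls for Pfkfb4 in HDN (0.48, adjusted p = 0.0397) and for Pgk1 (0.52, adjusted p = 0.03) and Slc16a3 (0.68, adjusted p = 0.0142) in LDN. Depth limits the levels of Pfkm in all groups and of Aldoc in Naive. Eno1 was not tested because its row held at most 5 reads in a library. Its near-identical copy Eno1b held 2509 to 5513 reads. By the column names these are STAR's per-gene counts, which leave out reads that map to several places. The cause of the gap between these rows was not tested.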
